A study of Sus scrofa with 8 samples.

Results

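Melanocyte genes were read in skin of Yorkshire swine, a white breed. The set held 10 genes, chosen by symbol from the deposited count table, and each symbol matched 1 of the 31907 Ensembl genes there. The genes were the regulators MITF and SOX10, the pigment enzymes TYR, TYRP1 and DCT, the melanosome proteins PMEL and MLANA, the receptors KIT and EDNRB, and the ion channel TRPM1. RNA came from 8 whole skin biopsies of 2 pigs, numbered 13 and 14, both labelled wild type. The injected group held 4 biopsies taken 3 h after an intradermal injection of 200 ng IL-15, a cytokine that activates lymphocytes through JAK1 and JAK3, in 100 µl of saline (sites 12c and 12d of pig 14, sites 12c and 12e of pig 13). The control group held 4 biopsies of skin without injection (sites 6b and 7e of pig 14, sites 6b and 7b of pig 13). No site received saline alone, and all injected sites carried the number 12 while all controls carried 6 or 7, so injection, IL-15 and body site cannot be told apart. Sites of 1 pig are not separate animals, so the p-values rest on variation among sites of the same 2 pigs. The labels used here name no coat colour, sex or age.

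Melanocytes are pigment cells of neural crest origin that sit in the basal epidermis and in hair bulbs. In them MITF, with SOX10 upstream of it, switches on the enzymes that turn tyrosine into melanin and the proteins that build the melanosome, the organelle in which melanin is made. Migration and survival of their precursors depend on the receptor KIT with its ligand KITLG and on the receptor EDNRB with its ligand EDN3. White coat in breeds such as Yorkshire is commonly ascribed to structural variants at the KIT locus, and skin of such animals is described as poor in melanocytes. Several of the genes also work elsewhere. KIT marks mast cells, EDNRB is made in blood vessel endothelium, SOX10 in Schwann cells and glands, and MITF in mast cells, macrophages and other cell types through alternative promoters.

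Total counts ran from 28471089 to 36070107 per biopsy. The first principal component of the most variable genes held 63.1% of their variance and separated the pigs. The control biopsy from site 7b of pig 13 stood apart, with the collagen gene COL1A1 at 8108 CPM (counts relative to the library total, after TMM scaling, the unit of all levels below unless RPKM is named) where the 3 remaining controls had 38232 to 99187 CPM. KRT5, a keratin of the basal epidermis, stood at 10841 CPM there and at 3169 to 6304 CPM in those 3. SOCS3, a gene induced by cytokine signalling, was at 29.0 CPM in this control, at 3.59 to 8.43 CPM in the other 3 and at 36.8 to 47.2 CPM in the injected biopsies. This biopsy enters every control value below. Of the 10 genes, 7 passed the filter on low counts and were tested, and TYRP1, MLANA and TRPM1 did not pass.

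MITF, KIT and EDNRB were well expressed in control skin, PMEL, SOX10 and DCT were near the middle of the skin transcriptome, and TYR, MLANA, TRPM1 and TYRP1 were lower. Levels per length in the 4 control biopsies (RPKM, the CPM divided by the exonic length in kilobases, mean ± SD, n = 4) stood in the order MITF 9.67 ± 1.596, KIT 6.69 ± 1.36, EDNRB 6.53 ± 1.86, PMEL 1.53 ± 0.534, SOX10 0.874 ± 0.324, DCT 0.546 ± 0.311, TYR 0.277 ± 0.0914, MLANA 0.0812 ± 0.110, TRPM1 0.0482 ± 0.0273 and TYRP1 0.0172 ± 0.0124. Among the 28119 genes with a count in any control, MITF stood at percentile 83.9, KIT at 77.8 and EDNRB at 77.4. PMEL followed at 55.2, SOX10 at 48.2 and DCT at 42.4, then TYR at 34.2, MLANA at 21.2, TRPM1 at 16.4 and TYRP1 at 8.02. The only neighbours in this order whose control ranges did not overlap were EDNRB and PMEL, 4.27-fold apart. The order MITF over KIT held in 3 of 4 controls, and KIT over EDNRB in 2 of 4. PMEL was above SOX10 and SOX10 above DCT in 4 of 4 controls, although their ranges overlapped. DCT was above TYR in 3 of 4.

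**Figure D1:**
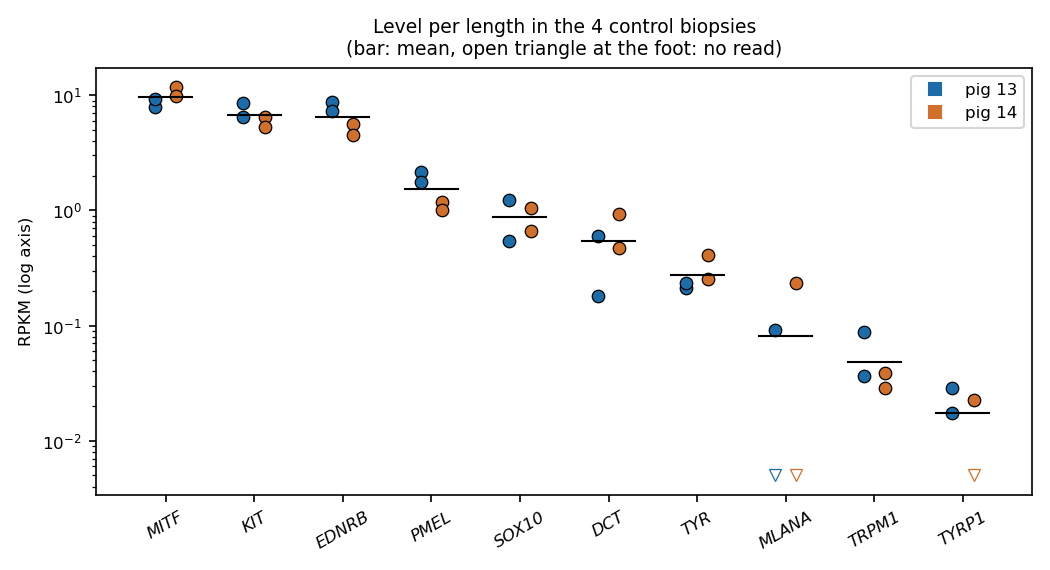
RPKM of the 10 melanocyte genes in each of the 4 control biopsies on a log axis, ordered by their mean (bar), with blue for pig 13 and orange for pig 14; an open triangle at the foot stands for a biopsy with no read. MITF, KIT and EDNRB form an upper group that does not overlap with the other 7 genes, and MLANA and TYRP1 had control biopsies with no read.

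MITF is the transcription factor that sets melanocyte identity (ENSSSCG00000011514, protein coding, chromosome 13, 51178203 to 51422096 of Sscrofa11.1, as are all positions here). Its level was 61.8 and 52.2 CPM at sites 7e and 6b of pig 14 and 41.5 and 48.7 CPM at sites 7b and 6b of pig 13 without injection. After IL-15 it was 56.3 and 45.1 CPM at sites 12d and 12c of pig 14 and 55.2 and 62.9 CPM at sites 12e and 12c of pig 13. The groups overlapped, and the log2 fold change of injected over control sites was 0.11 ± 0.14 (SE, 95% confidence interval -0.20 to 0.42, adjusted p = 0.965, edgeR's quasi-likelihood test). The counts are per gene, with 6 annotated transcripts summed, so the melanocyte isoform cannot be told apart from the forms of other cells.

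SOX10 is a neural crest transcription factor that activates MITF (ENSSSCG00000039315, protein coding, chromosome 5, 9891525 to 9959852). It was at 3.92 and 2.44 CPM in the controls of pig 14 from sites 7e and 6b and at 2.02 and 4.56 CPM in those of pig 13 from sites 7b and 6b. The injected biopsies had 4.70 and 3.42 CPM in pig 14 (sites 12d and 12c) and 3.38 and 3.39 CPM in pig 13 (sites 12e and 12c). The control values enclosed 3 of the 4 injected ones, and the log2 fold change was 0.20 ± 0.27 (SE, 95% confidence interval -0.41 to 0.80, adjusted p = 0.969, edgeR). SOX10 shares 169 exonic bases with POLR2F, an RNA polymerase subunit gene on the opposite strand at 270 to 520 counts per biopsy. No source used here states whether strand was used in counting, and the SOX10 values are uncertain to that extent.

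TYR, the enzyme of the first and rate-limiting step of melanin synthesis, was near the limit of what could be tested (ENSSSCG00000026409, protein coding, chromosome 9, 22517047 to 22604290). It had 14 and 21 counts in the pig 14 controls (sites 7e and 6b), 15 counts in each pig 13 control, 11 and 12 in the pig 14 injected biopsies and 21 and 14 in those of pig 13 (sites 12e and 12c). All 8 biopsies thus held TYR reads, with 123 in all. The means were 0.539 ± 0.178 CPM in controls and 0.470 ± 0.149 CPM after IL-15 (SD, n = 4), and the log2 fold change was -0.17 ± 0.39 (SE, adjusted p = 0.975, edgeR). Its 95% confidence interval ran from -1.04 to 0.70.

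TYRP1, which helps to oxidise a late melanin precursor, was the lowest gene of the set per length (ENSSSCG00000005193, protein coding, chromosome 1, 209725636 to 209745705). It had 2 counts at site 7e and 0 at site 6b of pig 14, and 2 at site 7b and 3 at site 6b of pig 13. Injected biopsies had 2 (site 12d) and 0 (site 12c) in pig 14 and 2 (site 12e) and 3 (site 12c) in pig 13, the same 7 counts per group as in controls. Pooled over the 123506269 counts of the controls, with no TMM factor, this is 0.0567 CPM, with an exact (Clopper-Pearson) 95% interval of 0.0228 to 0.117, which like all such intervals covers counting error only. On the same scale without TMM factors, the biopsies at 0 allow up to 3 counts, or 0.104 CPM at site 6b and 0.103 CPM at site 12c of pig 14.

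DCT converts dopachrome and was the most abundant of the 3 tyrosinase family enzymes per length (ENSSSCG00000009490, protein coding, chromosome 11, 63584866 to 63678314). Between control sites it stood at 4.76 (7e) and 2.40 CPM (6b) in pig 14 and 0.928 (7b) and 3.08 CPM (6b) in pig 13. The injected biopsies lay within that range, at 3.42 (12d) and 1.84 CPM (12c) in pig 14 and 1.87 (12e) and 2.20 CPM (12c) in pig 13. The log2 fold change was -0.21 ± 0.39 (SE, 95% confidence interval -1.09 to 0.66, adjusted p = 0.973, edgeR). DCT had 34 to 135 counts per biopsy. A gene without a symbol on the opposite strand lies over DCT, with 2 to 16 counts per biopsy and no exonic base in common.

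PMEL forms the amyloid fibrils on which melanin is laid down (ENSSSCG00000000371, protein coding, chromosome 5, 21355619 to 21365068). Among controls it was low in pig 14, at 2.58 (7e) and 2.21 CPM (6b), and high in pig 13, at 4.75 (7b) and 3.84 CPM (6b). After IL-15 it was 3.08 (12d) and 4.08 CPM (12c) in pig 14 and 3.41 (12e) and 3.02 CPM (12c) in pig 13. Every injected biopsy of pig 14 was therefore above its controls and every injected biopsy of pig 13 below its controls. The share of all tested genes with such a pattern was not counted, so it is a description only. The interaction of pig and treatment did not pass for PMEL (adjusted p = 0.548, edgeR). Over both animals the log2 fold change was 0.06 ± 0.24 (SE, 95% confidence interval -0.47 to 0.59, adjusted p = 0.984, edgeR).

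MLANA, a small membrane protein needed for PMEL processing and a diagnostic marker of melanocytes, was at the detection limit (ENSSSCG00000005206, protein coding, chromosome 1, 216232563 to 216245389). It had 0 and 4 counts in the pig 14 controls (sites 7e and 6b) and 0 and 2 in the pig 13 controls (sites 7b and 6b). All 4 injected biopsies held reads, with 2 (12d) and 5 (12c) in pig 14 and 2 (12e) and 8 (12c) in pig 13. Without TMM factors the pooled levels were 0.0486 CPM in controls (6 counts, exact 95% interval 0.0178 to 0.106) and 0.137 CPM after IL-15 (17 counts, exact 95% interval 0.0800 to 0.220). These intervals overlap, which is no test of a difference. MLANA did not pass the filter on low counts and was not in the main test. In edgeR without that filter it was not called, and its unadjusted p was not under 0.05. On that scale the control biopsies at 0 allow up to 0.0971 CPM (site 7e of pig 14) and 0.0894 CPM (site 7b of pig 13).

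KIT, the receptor for stem cell factor, was well expressed (ENSSSCG00000008842, protein coding, chromosome 8, 41402043 to 41493735). Its control levels were 33.5 (7e) and 27.5 CPM (6b) in pig 14 and 44.6 (7b) and 34.1 CPM (6b) in pig 13. Injected biopsies had 29.7 (12d) and 25.1 CPM (12c) in pig 14 and 33.1 (12e) and 33.6 CPM (12c) in pig 13. No injected biopsy exceeded the control mean of its own pig, but the groups overlapped. How many of all tested genes share that pattern was not counted. The log2 fold change was -0.20 ± 0.12 (SE, 95% confidence interval -0.46 to 0.06, adjusted p = 0.964, edgeR). It was -0.11 when the control from site 7b of pig 13 was left out. Reads of several KIT copies or of splice forms would all fall on this 1 gene, and copies were not told apart here.

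EDNRB, the endothelin receptor of melanocyte precursors, had the smallest p of the set between injected and control sites (ENSSSCG00000009477, protein coding, chromosome 11, 50072554 to 50102884). Without injection it was at 29.6 (7e) and 23.8 CPM (6b) in pig 14 and at 46.2 (7b) and 38.5 CPM (6b) in pig 13. After IL-15 it was at 44.1 (12d) and 37.2 CPM (12c) in pig 14 and at 49.1 (12e) and 53.6 CPM (12c) in pig 13. Every injected biopsy was above every control biopsy of the same pig, which held for 3.11% of all tested genes, while over both pigs the groups overlapped. The means were 34.5 ± 9.85 CPM in controls and 46.0 ± 7.03 CPM after IL-15 (SD, n = 4), and the log2 fold change was 0.44 ± 0.12 (SE, 95% confidence interval 0.17 to 0.71). With an unadjusted p of 0.0041 it ranked 99 of 19862 genes, and it did not pass after adjustment (adjusted p = 0.822 in edgeR, 0.295 to 0.9999 over the alternatives tried). Without the control from site 7b of pig 13 the log2 fold change was 0.53 (adjusted p = 0.321, edgeR).

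TRPM1, a cation channel whose gene is a target of MITF, was detected in every biopsy at very low counts (ENSSSCG00000004843, protein coding, chromosome 1, 143709864 to 143855984). It had 4 and 5 counts in the pig 14 controls (7e, 6b) and 16 and 6 in those of pig 13 (7b, 6b). Injected biopsies had 4 (12d) and 12 (12c) in pig 14 and 4 each in pig 13. One biopsy in each group was high, and the others had 4 to 6 counts.

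**Figure D2:**
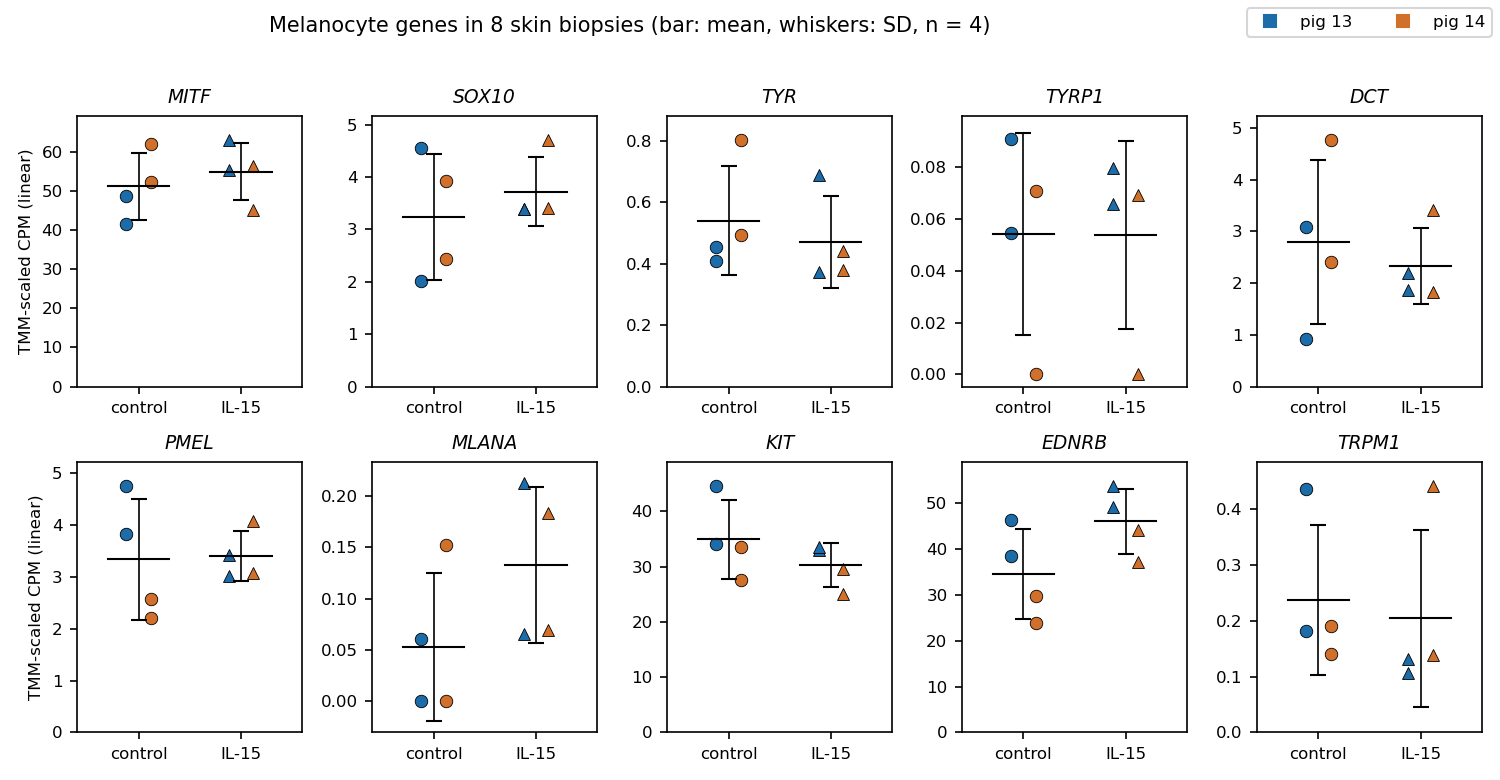
TMM-scaled CPM of each gene on a linear axis, with 1 panel per gene; circles are control and triangles injected biopsies, blue for pig 13 and orange for pig 14, and bars and whiskers are mean and SD (n = 4). In every panel the groups overlap, and only in the EDNRB panel do both injected biopsies lie above both controls in each pig.

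The injected and control values overlapped for all 10 genes, at a background of 2.07% of tested genes whose groups did not overlap. In total, edgeR called 0 of the 7 tested melanocyte genes between injected and control sites, at a background of 0.0352% of the 19862 genes tested (7 genes, all higher after IL-15). At an unadjusted p under 0.05 there was 1 of 7, EDNRB, against 4.54% of all genes, and DESeq2 also called 0. The 7 log2 fold changes had a median of 0.06, with 4 above and 3 below 0, beside a median of -0.01 over all tested genes. In bulk skin, fewer cells of a type and less RNA per cell cannot be told apart.

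Between the animals, EDNRB differed and the other 6 tested genes did not pass. EDNRB was lower in pig 14 than in pig 13, at 33.7 ± 8.83 against 46.9 ± 6.35 CPM (SD, 4 biopsies per pig), a log2 difference of -0.50 ± 0.12 (SE, 95% confidence interval -0.77 to -0.23, adjusted p = 0.0254, edgeR). It was the only one of the 7 genes called in this comparison, where 10.7% of all tested genes were called (4.34% as lower in pig 14). The call ended (adjusted p 0.0527 to 0.0758) without any 1 of 4 biopsies, namely site 12c, 7e or 6b of pig 14 or site 12c of pig 13. KIT was at 28.9 ± 3.59 CPM in pig 14 and 36.3 ± 5.50 CPM in pig 13, a log2 difference of -0.33 ± 0.12 that did not pass (SE, adjusted p = 0.101, edgeR). The other 5 tested genes had log2 differences from -0.34 for PMEL to 0.61 for DCT with adjusted p between 0.356 and 0.875. With 1 pig on each side, this compares 2 animals and no wider group.

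Whether the response to injection differed between the pigs was tested with an interaction term, and none of the 7 genes passed. The unadjusted p was 0.0267 for PMEL and 0.0303 for MITF, so 2 of 7 genes were under 0.05, at a background of 8.22% of all genes. Neither p stayed under 0.05 in every edgeR fit that left out 1 biopsy, site 7b of pig 13 among them. For PMEL the log2 fold change was -0.42 ± 0.27 within pig 13 and 0.58 ± 0.27 within pig 14 (SE). For MITF it was 0.39 ± 0.16 within pig 13 and -0.17 ± 0.16 within pig 14. The difference in response was 0.99 ± 0.38 for PMEL and -0.56 ± 0.22 for MITF (SE, adjusted p = 0.548 and 0.558, edgeR). EDNRB was higher after injection within both, by 0.28 ± 0.16 in pig 13 and 0.60 ± 0.16 in pig 14, and the interaction did not pass (adjusted p = 0.722, edgeR).

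**Figure D3:**
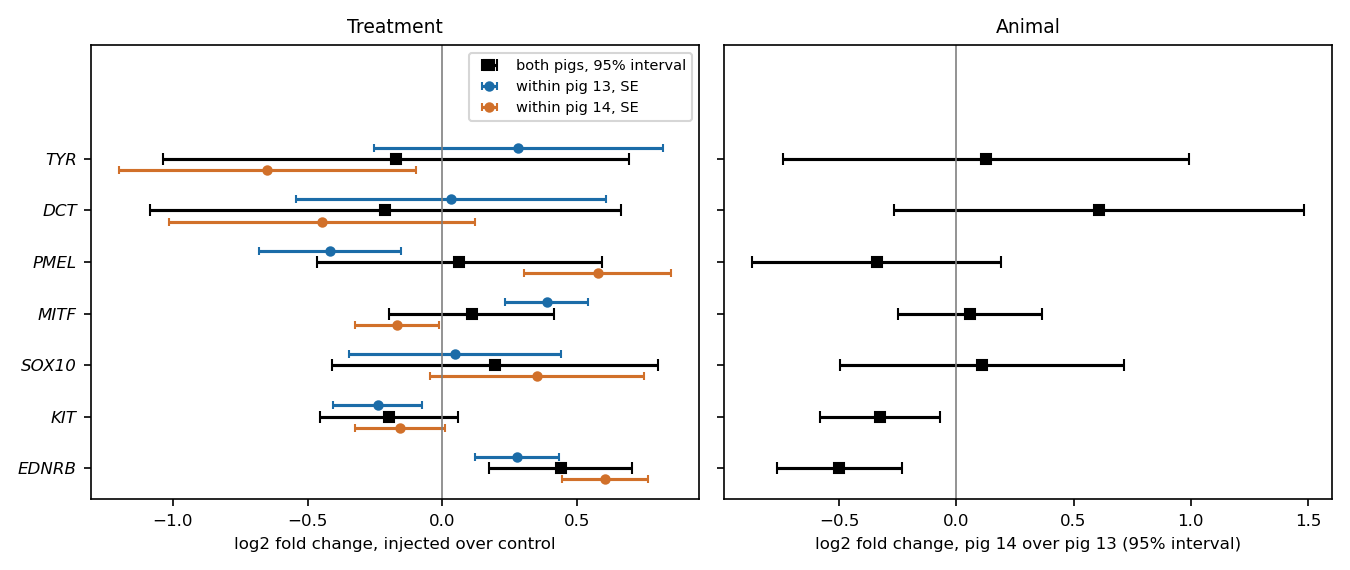
Log2 fold changes of the 7 tested genes for injected over control sites (left; black squares with 95% confidence intervals for both pigs, blue and orange with SE within pig 13 and pig 14) and for pig 14 over pig 13 (right, 95% confidence intervals). The interval of EDNRB lies above 0 on the left and below 0 on the right, that of KIT lies below 0 on the right, and the pigs have opposite signs for TYR, DCT, PMEL and MITF on the left.

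The rest of the pigment pathway was read from lists of other genes. Whole skin sums the reads of all its cell types, so the levels of list genes are not those of melanocytes alone. Of 24 symbols for melanosome assembly and transport 23 were found, as 24 genes since GPR143 has 2 identifiers, and 21 were tested. None was called between injected and control sites, 2 log2 fold changes were above and 19 below 0, and the median was -0.10 (10282 of the 19862 genes tested were below 0). Between the pigs 3 of the 21 were called, GPNMB, TPCN2 and MYO5A, all lower in pig 14, beside 10.7% of all tested genes. Their log2 differences were -0.84, -0.35 and -0.41 (adjusted p = 0.0036, 0.0477 and 0.0495, edgeR). Control levels in the list ran from BLOC1S3, with no read in any biopsy, to GPNMB at 242 ± 94.6 CPM, with the organelle motor MYO5A at 186 ± 47.6 CPM. The melanosome membrane transporters SLC45A2 and SLC24A5 were at 3.08 ± 0.756 and 0.418 ± 0.105 CPM, and RAB27A, the GTPase that links melanosomes to MYO5A through MLPH, was at 8.69 ± 2.14 CPM (SD, n = 4). The GPR143 genes had 1 to 28 counts per biopsy. RAB38, a GTPase that directs TYR and TYRP1 to melanosomes, had the smallest p of the list, with a log2 fold change of -0.63 ± 0.27 (SE, unadjusted p = 0.0487, adjusted p = 0.964, edgeR). Its highest control was site 7b of pig 13, at 82.2 CPM, while the other 3 had 33.8 to 51.7 CPM.

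Of 12 transcription factors that act with MITF and SOX10, 11 were tested and none was called between injected and control sites. The median log2 fold change was 0.10, with 9 above 0 (9580 of the 19862 genes tested were above 0). IRF4, which acts with MITF on TYR, had the smallest p of this list, with a log2 fold change of -0.44 ± 0.23 (SE, adjusted p = 0.964, edgeR). It was the only 1 of the 11 called between the pigs, beside 10.7% of all tested genes. Its level was higher in pig 14, by a log2 difference of 2.14. The cells that made IRF4 in whole skin were not told apart, and the cause of its difference between the pigs was not tested. PAX3, which activates MITF, was at 0.948 ± 0.0947 CPM in controls and 1.22 ± 0.423 CPM after IL-15 (SD, n = 4), a log2 fold change of 0.36 ± 0.30 (SE, adjusted p = 0.964, edgeR). FOXD3, a repressor of MITF in neural crest, had 0 to 16 counts. Of 15 ligand and receptor symbols 14 were found and 12 tested, with 6 log2 fold changes above and 6 below 0, a median of 0.01 and none called. Between the pigs 1 of the 12 was called, HGF, higher in pig 14 by a log2 difference of 0.86 (adjusted p = 0.0247, edgeR). The KIT ligand KITLG was at 60.6 ± 9.75 CPM in controls and 58.9 ± 10.3 CPM after IL-15, and the EDNRB ligand EDN3 at 0.870 ± 0.669 and 1.03 ± 0.256 CPM (SD, n = 4). MC1R, the melanocortin receptor of melanocytes, had 60 counts (2.20 CPM) at site 12c of pig 14 and at most 0.381 CPM in any other biopsy.

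Because several of the genes are shared with other cells, their variation between biopsies was set beside marker lists. The mean of each pig was taken off the log2 CPM first, and Pearson's r over the 8 biopsies is given as a description, since the points share libraries, animals and the treatment. For PMEL, EDNRB, SOX10, DCT and MITF the closest of 11 lists by the size of r are picked out, so high r are to be read with that choice in mind. For KIT the mast cell list is given first because KIT marks mast cells. PMEL followed the 8 basal keratinocyte markers (r = 0.89, and 0.87 without site 7b of pig 13). With the 21 tested melanosome genes r was -0.04, and -0.89 without site 7b. The 3 genes most like PMEL among 14812 with a symbol were LAMB3 (r = 0.99), TLE3 (0.99) and ITGB4 (0.98), of which LAMB3 and ITGB4 encode parts of the hemidesmosome that anchors basal keratinocytes. ITGB4 is itself 1 of the 8 basal keratinocyte markers, so its r is no separate support. For each member read in this way the 3 genes most alike had r from 0.96 to 0.99, picked from 14812 genes over 8 biopsies. The summed basal keratinocyte markers were 7759 to 22320 CPM in controls and 12656 to 16756 CPM after IL-15. The part of keratinocyte content in the PMEL values was not tested.

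EDNRB followed the 14 endothelial markers (r = 0.83, and 0.87 without site 7b). With the smooth muscle and pericyte markers r was 0.68 (0.78 without site 7b), and with the Schwann cell markers 0.29 (0.82 without site 7b). The Schwann cell list had a median log2 fold change of 0.21 after injection and the smooth muscle and pericyte list 0.12, with none called. The endothelial markers had a median log2 fold change of 0.09 between injected and control sites. Of the 14 markers 12 were above 0, where 9580 of the 19862 genes tested were above 0. None of the markers was called, and 4 had an unadjusted p under 0.05, beside 4.54% of all genes. The smallest p were those of ACKR1, at 0.56 ± 0.09, and CLDN5, at 0.62 ± 0.15 (SE, adjusted p = 0.173 and 0.733, edgeR). The summed endothelial level was 870 to 1199 CPM in controls and 989 to 1381 CPM in injected biopsies, with no marker at 0. Between the pigs the endothelial markers had a median log2 difference of -0.08, and 1 of 14, ACKR1, was called (higher in pig 14, adjusted p = 0.0442, edgeR), beside 10.7% of all genes. The part of vessel, pericyte or nerve content in the EDNRB differences was not tested. The genes most like EDNRB were EXOSC2 (r = 0.97), ALKBH6 (0.97) and DDX58 (0.96).

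SOX10 followed the 11 tested transcription factors (r = 0.92, and 0.88 without site 7b), the 12 tested ligands and receptors (r = 0.90, and 0.83) and the 15 hair follicle markers (r = 0.90, and 0.94), and moved against the 21 tested melanosome genes (r = -0.83, and -0.62). With the 15 tested Schwann cell markers r was 0.78, and 0.49 without site 7b. With the 10 tested gland markers it was 0.63, and 0.89 without site 7b. Hair follicle markers summed to 1507 CPM at site 7b of pig 13 and 3566 to 5203 CPM in the other controls, where SOX10 was 2.02 against 2.44 to 4.56 CPM. DCT and SOX10 varied together (r = 0.80, and 0.62 without site 7b). The list closest to DCT was that of ligands and receptors (r = 0.89, and 0.82 without site 7b). For MITF it was the basal keratinocyte list, in the opposite direction (r = -0.73, and -0.66 without site 7b). The genes most like DCT were CCDC73 (r = 0.99), ID2 (0.99) and CD79B (0.98), those most like SOX10 were LMAN1L (0.99), CNTRL (0.99) and PEX6 (0.98), and those most like MITF were ASB5 (0.99), PTPN4 (0.99) and SERINC4 (0.98). MITF and PMEL moved in opposite directions (r = -0.77, and -0.68 without site 7b).

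For KIT and the 9 mast cell markers found, r was -0.14, and -0.20 without site 7b. Of these markers 3 of 9 were called between the pigs, all higher in pig 14, beside 10.7% of all genes, and their median log2 difference was 0.75. The KIT difference of -0.33 did not pass, and the part of mast cell content in the KIT values was not tested. Their summed level was 58.4 to 131 CPM in controls and 64.5 to 99.4 CPM after IL-15. The mast cell list had 5 of its 14 symbols without a match, the proteases TPSAB1, TPSB2, CPA3, CMA1 and CTSG, and these were not analysed here. KIT and DCT changed from r = -0.08 to 0.93 when site 7b was left out, so that 1 biopsy set the value. Among the lists, r of KIT was largest in size with Schwann cell markers (-0.73, and -0.09 without site 7b). Fibroblast markers came next (-0.69, and -0.16 without site 7b). The genes most like KIT were HMOX2 (r = 0.98), LYRM2 (0.98) and SNORD45A (0.97).

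**Figure D4:**
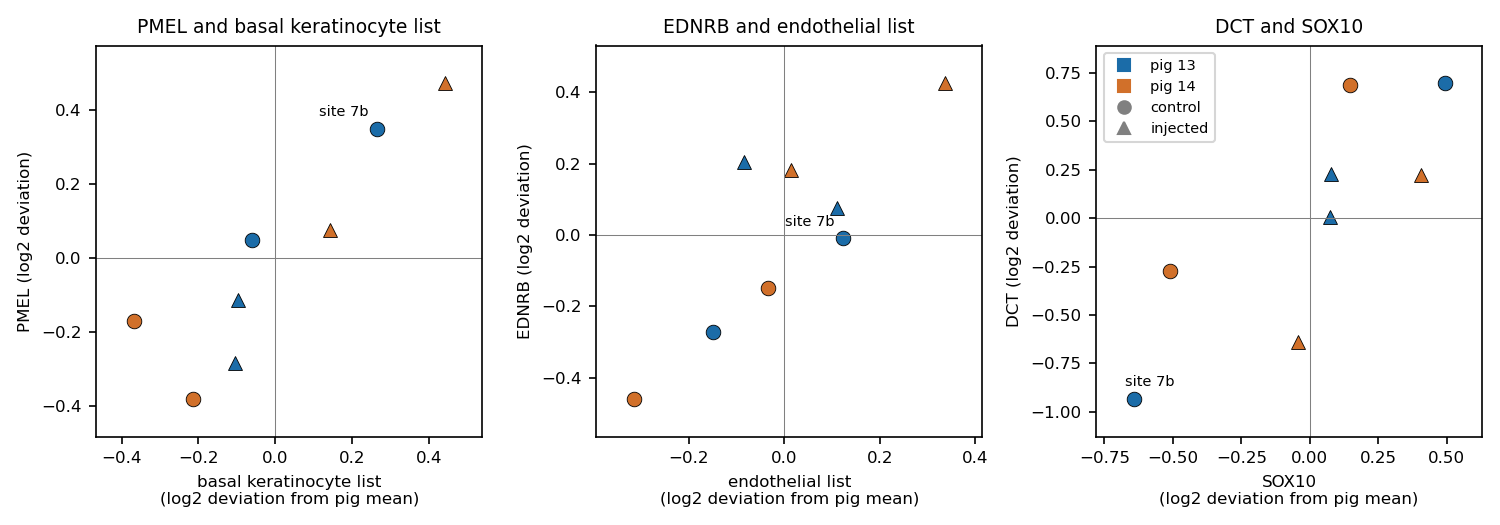
Log2 CPM as deviation from the mean of the same pig in 8 biopsies, for PMEL against the mean of 8 basal keratinocyte markers (left), EDNRB against the mean of 14 endothelial markers (middle) and DCT against SOX10 (right); circles are control, triangles injected, blue pig 13 and orange pig 14. The points rise together in each panel, with r of 0.89, 0.83 and 0.80, and in the right panel the biopsy from site 7b is the lowest on both axes.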

How the data were processed

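RNA of 8 biopsies was depleted of ribosomal RNA with RiboZero Gold, per the labels' protocols. Tools listed in the submitters' processing notes are STAR 2.5.1a, Subread featureCounts 1.4.6-p5 and bcl2fastq, with genome build Sscrofa11.1. The authors deposited whole-number counts per gene for the series, and per biopsy also CPM and RPKM, which were only compared with the counts. The file of site 7b of pig 13 ended after 607 genes, so its counts came from the series table. Rows repeated for 425 genes were identical and each gene was kept once. CPM and RPKM printed here were computed from counts with TMM factors and the exonic lengths in the deposited files, except pooled CPM and the limits at 0 counts, which rest on library totals without TMM factors.

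Genes were filtered with filterByExpr (minimum count 10), which left 19862, and tested with edgeR 4.0.16 in R 4.3.3 (quasi-likelihood F test, robust, treatment and pig in the model, Benjamini-Hochberg adjustment over all tested genes, called under 0.05). DESeq2 1.42.0 was an alternative. The pig is a block because the labels name the animal: as a check, once group means were removed, an injected and a control biopsy correlated at 0.25 to 0.54 within a pig and -0.49 to -0.28 across pigs. No 2 biopsies agreed within sampling noise. The procedure was tested on simulated data. Symbols came from the table, a gene name table and RefSeq (18290 of 31907 genes). The genes and lists were chosen with earlier results of these data known. All 10 genes are named, then list genes by smallest p and the 3 genes most alike by r on log2(CPM + 0.1); genes named for their level or role were chosen after their values were seen.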

Additional observations from a re-analysis of the deposited data

Results flagged for a closer look

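SOX10 in injected biopsies was flagged because site 12d of pig 14, at 4.70 CPM, lay far above the other 3 (3.38 to 3.42 CPM), with a gap of 0.973 of the group's range. TRPM1 was flagged in both groups, with site 12c of pig 14 at 0.441 CPM (12 counts) a gap of 0.904 above the other injected biopsies, and site 7b of pig 13 at 0.437 CPM (16 counts) a gap of 0.832 above the other controls. The limit for 4 samples is 0.829, 20 groups were looked at, and chance flags about 1 in 20.

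The response of PMEL differed between the pigs by a log2 value of 0.994 (pig 14 minus pig 13), and that of MITF by -0.556. Both came from an interaction term with an unadjusted p under 0.05 that did not pass over all genes. Neither p stayed under 0.05 in every fit that left out 1 biopsy.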

How the results depend on the processing

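No melanocyte gene was called between injected and control sites or for the interaction under any alternative tried, and EDNRB kept its sign in all 14 alternatives of the treatment comparison (log2 0.28 to 0.60). RLE size factors in place of TMM moved the median of all genes by under 0.001 (0.00064). DESeq2 called 48 genes higher and 10 lower after injection, 1333 lower in pig 14, and 24 and 62 in the interaction, where leaving out the filter gave 3 and 5. Within pig 13 alone 4 genes were higher. With no replicate block, that is with pig left out, 6 genes were called higher, and no melanocyte gene. Signs turned within pig 13 for TYR (0.28), DCT (0.032) and PMEL (-0.42) and within pig 14 for MITF (-0.17).

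Leaving out 1 biopsy at a time gave 3 to 19 genes higher and 0 to 1 lower after injection (3 without site 12d or site 6b of pig 14, 4 without site 12c or site 6b of pig 13, 19 without site 7b of pig 13). It gave 723 to 1347 higher and 392 to 903 lower in pig 14, and 0 to 143 and 0 to 170 in the interaction, the highest without site 6b of pig 13. Signs turned in these ranges for TYR (-0.47 to 0.075), DCT (-0.51 to 0.10) and PMEL (-0.11 to 0.22) after injection, for TYR (-0.13 to 0.41), MITF (-0.049 to 0.17) and SOX10 (-0.060 to 0.41) between pigs, and for DCT (-1.58 to 0.15), SOX10 (-0.39 to 0.78) and KIT (-0.12 to 0.26) in the interaction. EDNRB between pigs was -0.59 to -0.41. The cause of these shifts was not tested. Depth limits TYRP1, MLANA and TRPM1, which had at most 16 counts in a biopsy.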

Other observations

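Schwann cell genes, which share the neural crest origin and SOX10 with melanocytes, had a median log2 fold change of 0.21 after injection, with 11 of 15 above 0 and none called by edgeR. Of all tested genes 9580 of 19862 were above 0. An unadjusted p under 0.05 (edgeR) was found for 3 of the 15, beside 4.54% of all genes.

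Among hair follicle genes 15 of 15 had a log2 fold change above 0 (median 0.29, none called), where 9580 of the 19862 genes tested were above 0. Their summed level was lowest at the control site 7b of pig 13, at 1507 CPM. The other controls had 3566 to 5203 CPM and the injected biopsies 3584 to 5410 CPM, so these ranges largely overlapped. Medians were -0.15 for gland, 0.12 for smooth muscle and pericyte, and 0.33 for fibroblast markers, with none called. Summed fibroblast markers were also lowest at site 7b of pig 13, at 19272 CPM. They were at 76990 to 192541 CPM in the other controls and 77499 to 190458 CPM in the injected biopsies.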
